A study of Homo sapiens with 6 samples.

Results

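The genes described here are 45 genes of the amino acid response and of endoplasmic reticulum (ER) stress, taken as a fixed list of symbols and found by GENCODE symbol among 58336 gene IDs in each table. By role, 26 form the ATF4 branch, 15 the chaperone branch, and 4 encode stress sensors and their transcription factors. The RNA came from KGN, a line grown from a human ovarian granulosa cell tumour, and the question was which genes differ between cells with and without the C134W change of FOXL2, a forkhead transcription factor of granulosa cells. FOXL2 WT/C134W cells, for which the labels record no editing, gave the libraries 3.11, 44b and 3.11-44b. FOXL2 WT/WT cells, in which CRISPR/Cas9 had reverted the mutation, gave the libraries 44a, 4.72 and 4.72-44a. All were KGN cells grown in serum-containing medium, and RNA was extracted 30 h after transfection, of which the labels say no more. Each title with 1 name is taken here as 1 clone with 1 library, and editing is recorded for the WT/WT clones alone, so genotype, editing and clone cannot be told apart.

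The libraries 3.11-44b and 4.72-44a have titles that join clone names and may be mixes, so each is shown as a value and the tests rest on 2 clones per genotype. The labels do not say whether the clones were grown as separate cultures beyond their names, so p-values measure the spread between these clones. Summed counts per library ran from 35332727 to 46613068, and 3 counts equalled 0.0644 to 0.0849 CPM of these sums. The levels below are CPM after TMM scaling as well. The summed level of 13 granulosa markers was 556 and 1553 CPM in 3.11 and 44b against 1455 and 1866 CPM in 44a and 4.72, so 3.11 stood apart. Among them, FOXL2, AMH and NR5A1 were detected in every library, while FSHR, AMHR2, WT1 and GATA4 were at 0 in all 6. Of the 8 granulosa markers tested, 6 had a negative and 2 a positive log2 fold change. FOXL2 itself was higher in WT/C134W, at 9.3 and 10.1 CPM in 3.11 and 44b against 7.4 and 4.8 CPM in 44a and 4.72. CD3E and LYZ (leukocytes) and CDH5 (endothelium) were also at 0 in all 6 libraries. The 5 leukocyte markers together were not at 0. Their summed level was 68.2 and 67.4 CPM in 3.11 and 44b against 72.7 and 75.2 CPM in 44a and 4.72. The summed level of 6 fibroblast markers, which include the collagens of these cells, was 17650 and 15950 CPM in 3.11 and 44b against 39390 and 33400 CPM in 44a and 4.72. Of these 6 markers, 5 had a negative log2 fold change. The summed epithelial markers were at 3.41 and 49.9 CPM in 3.11 and 44b against 102 and 1.90 CPM in 44a and 4.72, and the summed endothelial markers at 14.9 and 3.38 CPM against 2.22 and 6.34 CPM. The part of these levels in the results below was not tested.

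Cells that lack amino acids or whose ER holds unfolded proteins phosphorylate the translation factor eIF2. This lowers general translation but raises translation of ATF4, a transcription factor that switches on genes for amino acid uptake and synthesis. In the ER itself, the sensors IRE1 (gene ERN1) and ATF6 lead to the transcription factors XBP1 and cleaved ATF6, which switch on ER chaperones and the machinery that removes misfolded proteins. PERK (gene EIF2AK3) joins both arms, since it is an ER sensor that phosphorylates eIF2. Granulosa cells secrete hormones and matrix proteins, which are folded in the ER.

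The branches are known to be read through different promoter elements, and the promoters of the members are shown first for that reason. RefSeq promoter sequences (GRCh38.p14, 250 bases before to 50 after the start) were held for 41 of the 45 members, 22 in the ATF4 branch, 15 in the chaperone branch and 4 sensors. The ER stress element ERSE, searched on both strands as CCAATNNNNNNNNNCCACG, was found in 0.0769% of 35116 promoters. Each member was searched at a single start, which can lie inside its gene. The SLC3A2 promoter begins at 62881449 on chromosome 11, while the gene begins at 62856102. ERSE was found in 4 of 15 chaperone promoters, in that of XBP1 and in 0 of 22 ATF4-branch promoters. The matches, written on the strand of the motif, with the distance of the first promoter base of the match from the start, were
XBP1 (52 bases upstream): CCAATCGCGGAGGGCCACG
HSPA5 (66 bases upstream): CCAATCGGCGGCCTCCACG
HSP90B1 (194 bases upstream): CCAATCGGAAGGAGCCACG
HSP90B1 (89 bases upstream): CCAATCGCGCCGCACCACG
CALR (225 bases upstream): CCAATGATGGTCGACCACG
CRELD2 (80 bases upstream): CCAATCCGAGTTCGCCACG

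The second form of this element, ERSE-II (ATTGGNCCACG), was found in 0.0541% of all promoters and in 3 of 15 chaperone promoters, those of HYOU1, SDF2L1 and HERPUD1, against 0 of 22 in the ATF4 branch. No member's promoter held both forms, so 7 of 15 chaperone promoters held 1 or the other. The XBP1 element UPRE (TGACGTGG) was found in 0.729% of all promoters and in that of HYOU1 alone among the members. The core of the element that ATF4 binds with C/EBP partners, CARE (TGATGNAA), was found in 3.62% of all promoters, in 6 of 22 ATF4-branch promoters and in 1 of 15 chaperone promoters, that of HERPUD1. The cyclic AMP element CRE (TGACGTCA) was found in 1.85% of all promoters and in that of PPP1R15A. UPRE and ERSE-II overlapped at 1 place in HYOU1, and each match describes letters, not binding. The CARE matches, written in the same way, were
ATF3 (191 bases upstream): TGATGGAA
CHAC1 (209 bases upstream): TGATGCAA
ASNS (68 bases upstream): TGATGAAA
SLC3A2 (38 bases downstream): TGATGTAA
SLC7A1 (8 bases downstream): TGATGAAA
FGF21 (54 bases upstream): TGATGCAA
HERPUD1 (176 bases upstream): TGATGCAA

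The whole promoters are given for ATF4 and for the 3 members of each branch with the smallest p between genotypes that held a match. They are written 5′ to 3′ on the strand of the gene, with matches of the 5 motifs in capitals. That of ATF4 held no match.
ATF4 (chr22:39520309-39520608, plus strand): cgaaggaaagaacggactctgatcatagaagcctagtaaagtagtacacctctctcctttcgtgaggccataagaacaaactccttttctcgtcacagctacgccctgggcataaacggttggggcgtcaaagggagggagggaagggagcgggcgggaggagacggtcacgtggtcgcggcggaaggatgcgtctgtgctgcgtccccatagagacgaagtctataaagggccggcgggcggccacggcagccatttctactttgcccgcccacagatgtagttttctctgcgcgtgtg
CHAC1 (chr15:40953221-40953520, plus strand): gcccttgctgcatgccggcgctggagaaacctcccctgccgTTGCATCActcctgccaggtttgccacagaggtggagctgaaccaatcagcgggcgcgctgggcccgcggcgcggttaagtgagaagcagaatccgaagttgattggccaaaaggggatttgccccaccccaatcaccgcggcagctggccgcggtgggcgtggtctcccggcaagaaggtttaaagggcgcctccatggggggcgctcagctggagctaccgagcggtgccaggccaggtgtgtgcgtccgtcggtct
SLC3A2 (chr11:62881449-62881748, plus strand): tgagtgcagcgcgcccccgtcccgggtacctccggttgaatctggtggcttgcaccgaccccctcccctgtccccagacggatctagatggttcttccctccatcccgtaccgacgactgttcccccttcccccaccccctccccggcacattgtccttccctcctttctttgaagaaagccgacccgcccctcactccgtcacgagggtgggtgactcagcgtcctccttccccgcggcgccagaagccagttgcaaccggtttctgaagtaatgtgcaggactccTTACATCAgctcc
SLC7A1 (chr13:29595639-29595938, minus strand): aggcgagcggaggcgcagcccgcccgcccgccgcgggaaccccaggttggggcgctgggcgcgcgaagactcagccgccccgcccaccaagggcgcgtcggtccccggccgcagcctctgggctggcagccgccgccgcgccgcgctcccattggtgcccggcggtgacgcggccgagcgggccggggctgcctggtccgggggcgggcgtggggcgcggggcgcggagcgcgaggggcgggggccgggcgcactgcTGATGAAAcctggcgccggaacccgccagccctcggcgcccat
CALR (chr19:12938359-12938658, plus strand): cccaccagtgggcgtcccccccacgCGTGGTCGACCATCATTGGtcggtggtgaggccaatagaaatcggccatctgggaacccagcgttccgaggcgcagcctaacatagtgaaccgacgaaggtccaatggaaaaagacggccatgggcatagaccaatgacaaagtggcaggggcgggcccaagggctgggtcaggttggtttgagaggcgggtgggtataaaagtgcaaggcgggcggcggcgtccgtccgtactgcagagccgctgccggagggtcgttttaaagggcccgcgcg
HERPUD1 (chr16:56931892-56932191, plus strand): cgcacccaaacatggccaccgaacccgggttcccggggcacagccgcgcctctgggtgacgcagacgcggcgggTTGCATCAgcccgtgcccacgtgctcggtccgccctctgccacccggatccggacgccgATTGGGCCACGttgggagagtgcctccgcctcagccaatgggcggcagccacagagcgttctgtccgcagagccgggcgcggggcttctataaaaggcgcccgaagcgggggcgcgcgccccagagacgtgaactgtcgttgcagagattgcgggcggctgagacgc
HYOU1 (chr11:119057156-119057455, minus strand): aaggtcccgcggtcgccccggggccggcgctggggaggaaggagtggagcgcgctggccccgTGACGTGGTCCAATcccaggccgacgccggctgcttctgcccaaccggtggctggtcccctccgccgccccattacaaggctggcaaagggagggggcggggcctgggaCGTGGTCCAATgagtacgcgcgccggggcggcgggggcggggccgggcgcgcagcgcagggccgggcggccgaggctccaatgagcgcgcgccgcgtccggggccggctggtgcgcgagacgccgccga

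Most of these genes stood lower in the WT/C134W clones than in the WT/WT clones, but no single gene passed the threshold. In such bulk RNA fewer cells of a kind and less RNA per cell cannot be told apart. Of 44 members tested, 40 had a negative log2 ratio of WT/C134W to WT/WT (the log2 fold change) and the median was -0.56, beside 49.4% negative and a median of 0.01 over the 16416 genes tested. FGF21, a hormone, was at 0 in all 6 libraries and was not tested. In edgeR's quasi-likelihood test 0 members had a Benjamini-Hochberg adjusted p under 0.05 over all genes, and 0% of all genes did, and limma voom also called 0 members. The unadjusted p was under 0.05 in 15 of 44 members, all of them lower in WT/C134W, where the background was 4.7% of all genes lower and 2.88% higher. In CPM both WT/C134W clones lay below both WT/WT clones for 24 members and above them for 1, ATF6. Of all genes, 19.7% lay below and 19.9% above in this way. Without 44a the unadjusted count was 7, of which 1 was higher. DESeq2 on the same 4 clones called 4 members, all lower (background 1.3%), which were ATF4, CHAC1, SLC3A2 and SLC7A5.

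**Figure D1:**
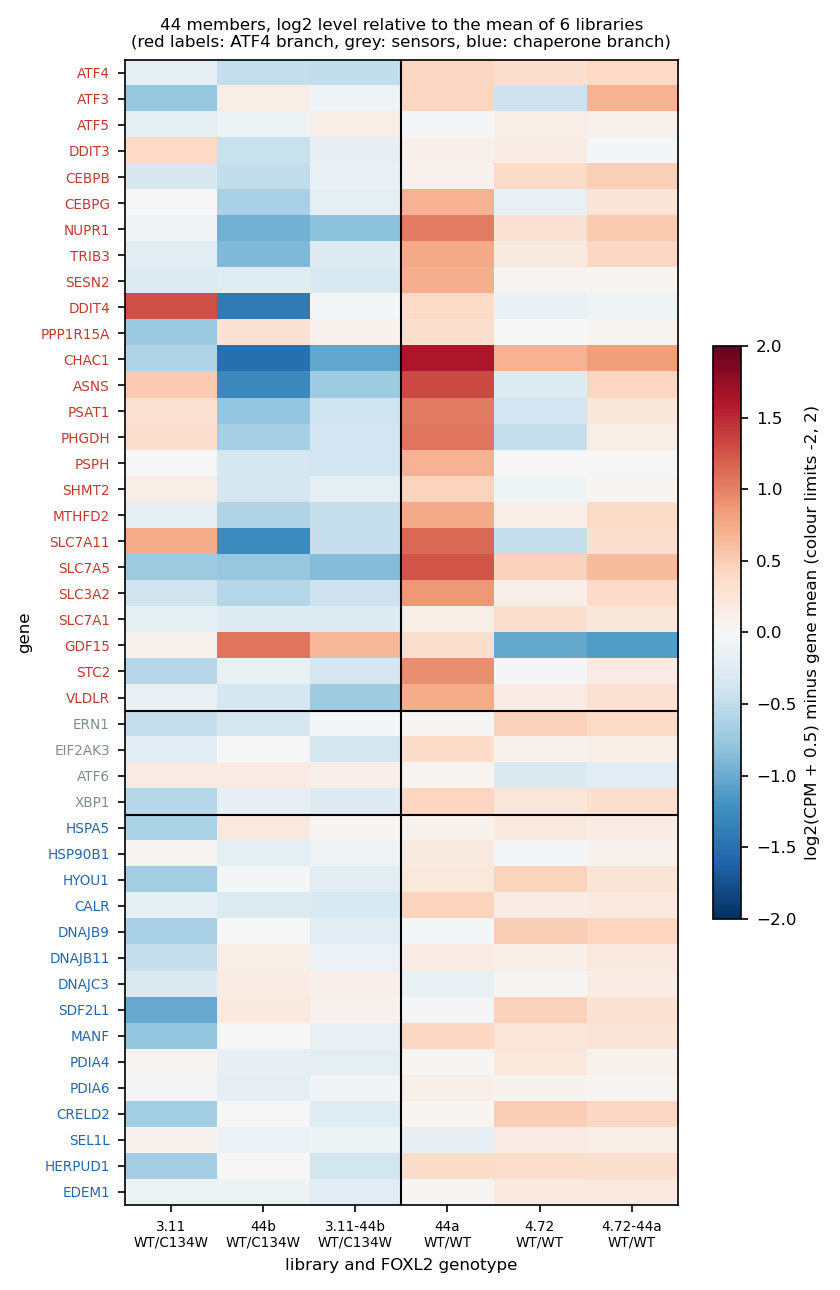
Level of the 44 tested members in each of the 6 libraries, as log2(CPM + 0.5) minus the mean of the gene over the libraries. WT/C134W libraries are left and WT/WT libraries right of the vertical line, and rows run by branch. Most rows are bluer on the left, and the ATF4 branch is reddest in 44a.

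ATF4 itself (ENSG00000128272, chromosome 22, 39519695 to 39522685 on the plus strand, GRCh38) was one of the more even members. Its level was 318 CPM in 3.11 and 263 CPM in 44b, against 487 CPM in 44a and 461 CPM in 4.72. The joined libraries held 259 CPM (WT/C134W) and 483 CPM (WT/WT). The genotypes did not overlap, and the clones of each genotype differed by less than the genotypes did. The log2 fold change was -0.71 ± 0.18 (SE derived from the F value, 2 clones in each genotype, adjusted p = 0.593 in edgeR's test). DESeq2 on the same clones gave an adjusted p of 0.0108, within a range of 0.0108 to 0.999 over the alternatives. The abundance of the mRNA does not measure its translation.

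Among the other transcription factors of the branch, CEBPB, NUPR1 and ATF5 were lower without overlap in CPM. CEBPB, a partner that binds DNA with ATF4, had 30.9 and 27.4 CPM in 3.11 and 44b against 41.0 and 50.7 CPM in 44a and 4.72 (log2 fold change -0.65 ± 0.19, adjusted p = 0.599). NUPR1, a stress-induced chromatin protein, had 83.1 and 44.3 CPM against 176 and 105 CPM in the same order of clones (-1.14 ± 0.39, adjusted p = 0.647). CEBPG, another partner, overlapped between genotypes, at 34.5 and 21.7 CPM against 55.5 and 30.8 CPM. ATF5, a relative of ATF4 that is also controlled by translation, had the smallest difference of the 3, at 20.0 and 21.2 CPM against 22.0 and 25.1 CPM. Per length, in TPM, ATF5 overlapped between genotypes, at 17.4 and 19.35 TPM against 19.01 and 21.48 TPM. ATF3, a repressor induced downstream, was low in all single clones, between 1.55 and 4.17 CPM.

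DDIT3, which encodes CHOP, the factor linked to cell death in long ER stress, overlapped between genotypes. It had 24.0 CPM in 3.11 and 13.2 CPM in 44b, against 19.3 CPM in 44a and 19.9 CPM in 4.72, so both WT/WT clones lay between the WT/C134W clones. The log2 fold change was -0.08 ± 0.31 (adjusted p = 0.989), and it was 0.28 without 44b but -0.57 without 3.11. DDIT3 overlaps MARS1 on the opposite strand, and although the library kit keeps strand, the strand setting of the counting is not given in the sources used here, so its counts are uncertain. The same holds for ATF5, DNAJB9 and CRELD2, whose opposite-strand neighbours held 495%, 269% and 22.9% of their counts.

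**Figure D2:**
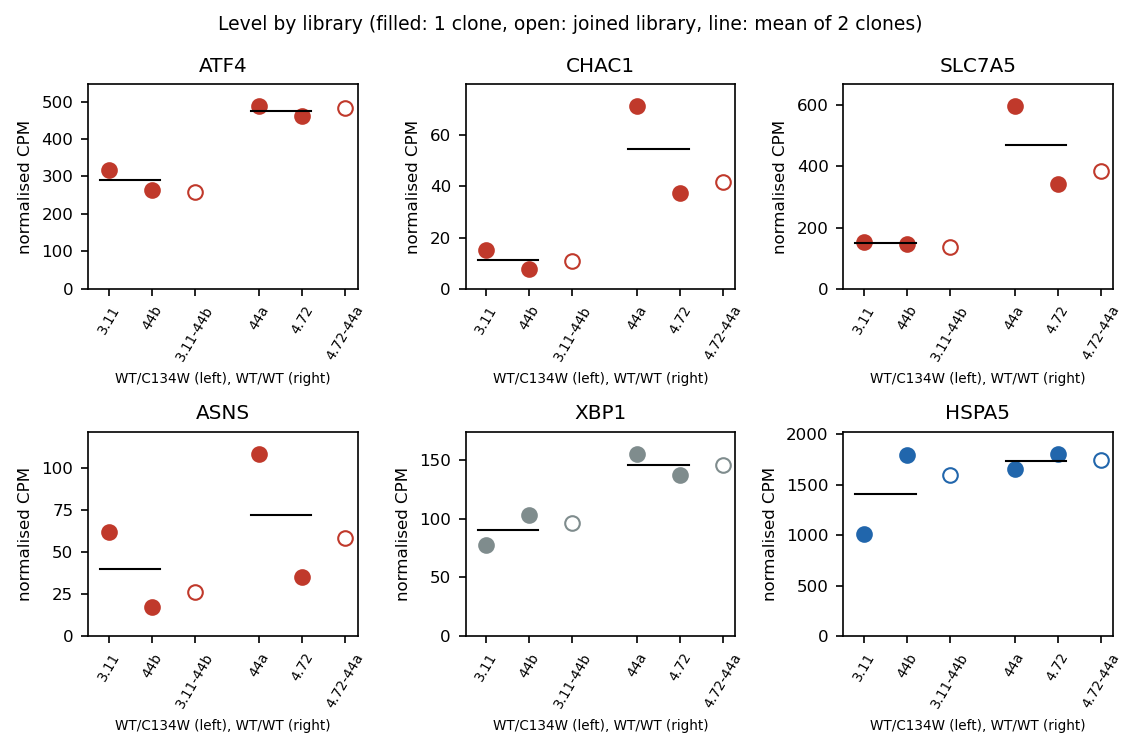
Normalised CPM of ATF4, CHAC1, SLC7A5, ASNS, XBP1 and HSPA5 in each library, WT/C134W left and WT/WT right. Filled points are single clones, open points the joined libraries, and lines the mean of the 2 clones. ATF4, CHAC1, SLC7A5 and XBP1 do not overlap between genotypes, while ASNS and HSPA5 do.

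The largest difference among the members was that of CHAC1, an enzyme that breaks down glutathione. CHAC1 (chromosome 15, 40952962 to 40956519) had 15.1 CPM in 3.11 and 7.75 CPM in 44b, against 71.2 CPM in 44a and 37.6 CPM in 4.72, and the joined libraries held 10.9 CPM (WT/C134W) and 41.6 CPM (WT/WT). Its promoter holds a CARE match, shown above. The log2 fold change was -2.26 ± 0.46 (adjusted p = 0.582). TRIB3, a pseudokinase that dampens ATF4, had 28.9 and 18.1 CPM in 3.11 and 44b against 57.5 and 38.2 CPM in 44a and 4.72 (-1.03 ± 0.31, adjusted p = 0.633). SESN2, a stress protein that restrains the growth kinase mTORC1, had 18.0 and 18.3 CPM against 36.3 and 22.8 CPM.

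The other feedback genes showed no common direction. PPP1R15A, the phosphatase subunit that restores eIF2, had 43.1 CPM in 3.11 and 89.2 CPM in 44b, against 90.7 CPM in 44a and 72.6 CPM in 4.72. DDIT4, another brake on mTORC1, spread most of all members between clones of a genotype, with 140 CPM in 3.11 and 21.0 CPM in 44b, against 74.6 CPM in 44a and 52.0 CPM in 4.72. Both WT/WT clones again lay between the WT/C134W clones. Its log2 fold change of 0.34 ± 0.97 (adjusted p = 0.982) was -1.59 without 3.11 and 1.13 without 44b.

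The 4 amino acid transporters had a median log2 fold change of -0.76. In CPM 3 of them (75%) were lower without overlap between genotypes, beside 19.7% of all genes. SLC7A5 and SLC3A2 encode the light and heavy chain of LAT1, which imports large neutral amino acids. SLC7A5 (chromosome 16, 87830023 to 87869488) had 151 and 146 CPM in 3.11 and 44b against 596 and 344 CPM in 44a and 4.72, a log2 fold change of -1.66 ± 0.28 (adjusted p = 0.48). Its joined libraries held 136 CPM (WT/C134W) and 384 CPM (WT/WT). The WT/C134W clones were nearly equal, and 44a stood 1.73-fold above 4.72. SLC3A2 had 96.3 and 85.9 CPM against 232 and 140 CPM in the same clones (-1.03 ± 0.27, adjusted p = 0.593), and its log2 fold change was -0.64 without 44a.

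SLC7A1, an importer of arginine and lysine, had 223 and 215 CPM in 3.11 and 44b against 282 and 328 CPM in 44a and 4.72 (-0.48 ± 0.16, adjusted p = 0.647). Per length, in TPM (transcripts scaled to a common total), SLC3A2 had the highest level of the 4 transporters in each single clone. It had 121.3 and 80.7 TPM in 3.11 and 44b against 215 and 120.8 TPM in 44a and 4.72. In TPM the genotypes therefore overlapped for SLC3A2, unlike in CPM. SLC7A11, the cystine importer, overlapped between genotypes, with 63.4 and 15.4 CPM in 3.11 and 44b against 83.3 and 27.1 CPM in 44a and 4.72.

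The 6 genes of asparagine, serine and folate metabolism had a median log2 fold change of -0.60. Of them 1 (16.7%) was lower without overlap between genotypes, beside 19.7% of all genes. ASNS, PHGDH and PSAT1 differed more between clones of a genotype than between genotypes. ASNS, the asparagine synthetase, had 62.0 CPM in 3.11 and 17.2 CPM in 44b, against 108 CPM in 44a and 35.3 CPM in 4.72, and the joined libraries held 26.1 CPM (WT/C134W) and 58.1 CPM (WT/WT). The log2 fold change of -0.86 had an SE of 0.87. PHGDH and PSAT1, the first enzymes of serine synthesis, had 123 and 61.0 CPM and 152 and 71.6 CPM in 3.11 and 44b, against 203 and 69.4 CPM and 253 and 94.1 CPM in 44a and 4.72. In these 3 genes and in PSPH and SHMT2 the WT/C134W clone 3.11 lay above the WT/WT clone 4.72, so the genotypes overlapped.

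PSPH, the last enzyme of serine synthesis, had 30.4 and 23.9 CPM in 3.11 and 44b against 49.4 and 30.1 CPM in 44a and 4.72. SHMT2, which moves a carbon unit from serine to folate in mitochondria, had 166 and 120 CPM against 207 and 143 CPM. MTHFD2, the next enzyme on that path, was the 1 of these 6 genes without overlap, with 142 and 106 CPM in 3.11 and 44b against 274 and 178 CPM in 44a and 4.72 (-0.87 ± 0.26, adjusted p = 0.633), and it stood at -0.55 without 44a.

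Of the secreted and surface products, STC2 and VLDLR were lower without overlap in CPM, but both overlapped in TPM. In TPM STC2 had 41.1 and 58.25 in 3.11 and 44b against 124.9 and 57.3 in 44a and 4.72. VLDLR had 8.86 and 7.57 TPM against 13.2 and 8.02 TPM in the same order of clones. STC2, a secreted glycoprotein, had 88.6 and 119 CPM in 3.11 and 44b against 252 and 128 CPM in 44a and 4.72. VLDLR, a lipoprotein receptor, had 18.9 and 16.5 CPM against 35.6 and 23.5 CPM. GDF15, a stress cytokine that is also a p53 target, had a positive log2 fold change, with 3.82 and 8.21 CPM against 4.67 and 1.53 CPM in the same order of clones (0.96 ± 0.68, adjusted p = 0.821), and the genotypes overlapped. Its value was 0.29 without 44b and 1.96 without 44a.

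Among the 4 sensors, XBP1, ERN1 and EIF2AK3 were lower and ATF6 higher without overlap in CPM. XBP1 (chromosome 22, 28794555 to 28800597) had 77.7 and 103 CPM in 3.11 and 44b against 156 and 137 CPM in 44a and 4.72, a log2 fold change of -0.69 ± 0.20 (adjusted p = 0.593). Its joined libraries held 96.2 CPM (WT/C134W) and 146 CPM (WT/WT). The gene totals do not separate the spliced from the unspliced form of XBP1 mRNA. ERN1, whose enzyme makes that splice, had 3.97 and 4.41 CPM against 5.81 and 8.06 CPM (-0.73 ± 0.38, adjusted p = 0.726). Per length this difference was not seen, since ERN1 had 2.18 and 1.01 TPM against 1.45 and 1.63 TPM, and limma on log2(TPM + 1) gave -0.006. EIF2AK3 had 14.7 and 17.3 CPM in 3.11 and 44b against 22.4 and 18.0 CPM in 44a and 4.72 (-0.34 ± 0.22, adjusted p = 0.793). ATF6 had 71.5 and 71.4 CPM against 66.2 and 52.1 CPM, a log2 fold change of 0.27 ± 0.18 (adjusted p = 0.787) that was 0.11 without 4.72 and 0.44 without 44a. Without 44a that of EIF2AK3 was -0.19. In TPM the genotypes overlapped for EIF2AK3, at 9.33 and 11.4 TPM in 3.11 and 44b against 13.3 and 9.67 TPM in 44a and 4.72.

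The chaperone branch had 14 of 15 negative log2 fold changes with a median of -0.30. In CPM 8 of its members (53.3%) were lower without overlap, beside 19.7% of all genes. Of these, CRELD2, DNAJB11 and PDIA6 overlapped in TPM. With library totals alone in place of TMM, which moved the median of all genes to 0.23, 9 of 15 were negative and the median was -0.08. HSPA5 (chromosome 9, 125234853 to 125241330), the ER Hsp70 known as BiP and the usual marker of this branch, had 1015 CPM in 3.11 and 1796 CPM in 44b, against 1659 CPM in 44a and 1807 CPM in 4.72. Its joined libraries held 1597 CPM (WT/C134W) and 1740 CPM (WT/WT), so 3.11 alone stood far from the rest. The log2 fold change was -0.30 ± 0.30 (adjusted p = 0.885), and without 3.11 it was 0.05.

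The 6 chaperone members with the smallest p were CALR, HERPUD1, HYOU1, MANF, CRELD2 and DNAJB9. CALR, a calcium-binding chaperone of glycoproteins, had 1304 and 1231 CPM in 3.11 and 44b against 2027 and 1648 CPM in 44a and 4.72 (-0.54 ± 0.20, adjusted p = 0.654). It was also the member with the highest level per length, at 1238 and 1115 TPM against 1678 and 1350 TPM. HERPUD1, an organiser of ER-associated degradation, had 59.3 and 96.4 CPM against 123 and 122 CPM (-0.66 ± 0.25, adjusted p = 0.658). HYOU1, an ER chaperone related to Hsp70, had 116 and 185 CPM in 3.11 and 44b against 216 and 255 CPM in 44a and 4.72 (-0.65 ± 0.26, adjusted p = 0.658).

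MANF, a small secreted ER protein, had 83.0 and 143 CPM in 3.11 and 44b against 190 and 169 CPM in 44a and 4.72 (-0.67 ± 0.28, adjusted p = 0.672). CRELD2, another small ER protein, had 36.0 and 58.0 CPM against 59.97 and 81.85 CPM (-0.59 ± 0.28, adjusted p = 0.704). DNAJB9, a cochaperone of HSPA5, had 9.27 and 14.7 CPM against 14.5 and 21.1 CPM (-0.57 ± 0.33, adjusted p = 0.758). Apart from CALR, these genes stood nearer 0 without 3.11, the clone with the lowest summed granulosa markers. Without it HERPUD1 stood at -0.34, HYOU1 at -0.35, MANF at -0.33, CRELD2 at -0.29 and DNAJB9 at -0.27, while without 44b the same 5 stood between -1.12 and -0.95. In CALR alone of these 6 genes 3.11 lay above 44b, and in DNAJB9 alone the genotypes overlapped in CPM. In TPM those of CRELD2 overlapped too, at 45.3 and 69.1 TPM in 3.11 and 44b against 65.8 and 88.6 TPM in 44a and 4.72.

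The remaining chaperone members had log2 fold changes between -0.53 and 0.01. SDF2L1, an ER cochaperone with an ERSE-II match, had 10.3 and 24.4 CPM in 3.11 and 44b against 20.7 and 29.2 CPM in 44a and 4.72. HSP90B1, the ER Hsp90, had 1297 and 1117 CPM against 1431 and 1222 CPM, and the genotypes overlapped. DNAJC3, an inhibitor of PERK, had 53.7 and 73.2 CPM against 59.2 and 66.9 CPM. The disulfide isomerases PDIA4 and PDIA6, the cochaperone DNAJB11 and the degradation factors SEL1L and EDEM1 had log2 fold changes of -0.18, -0.20, -0.29, -0.04 and -0.22.

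**Figure D3:**
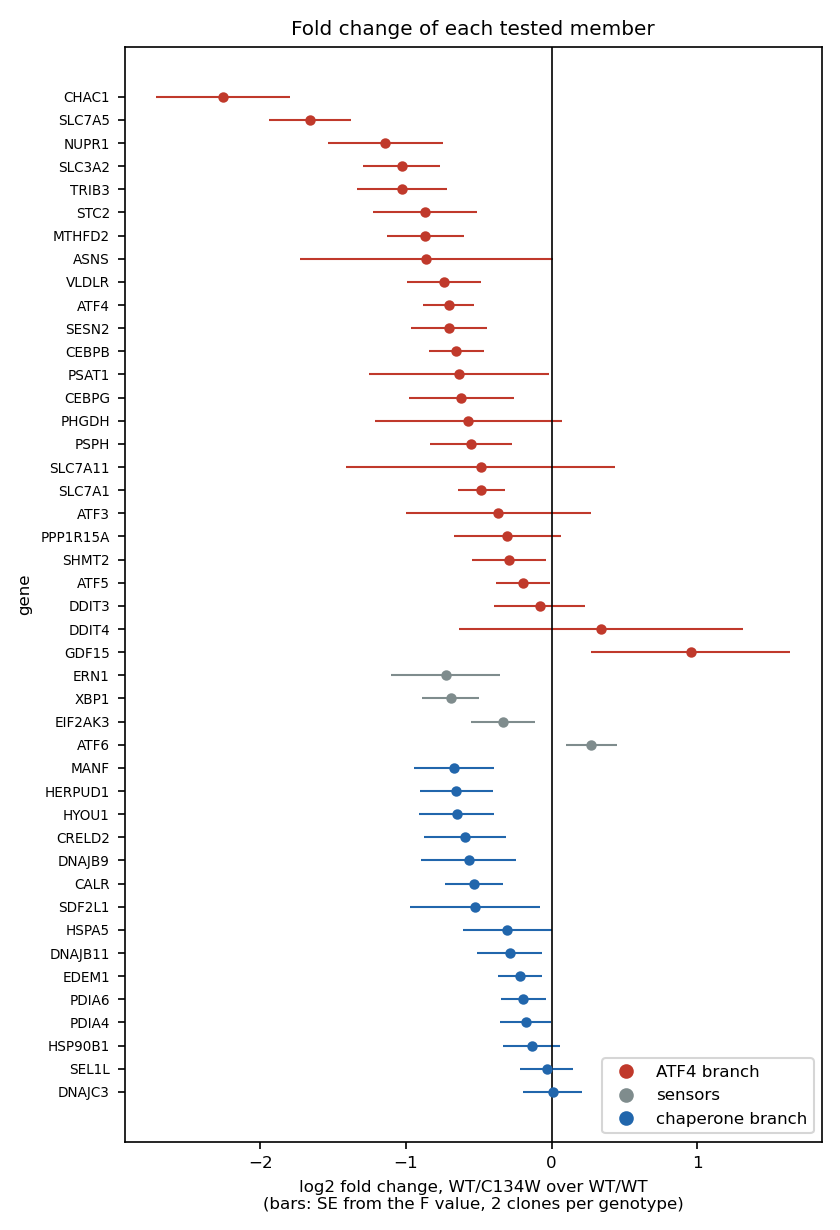
Log2 ratio of WT/C134W to WT/WT for the 44 tested members by branch, from 2 clones in each genotype, with bars of 1 SE. The ATF4 branch runs from -2.26 to 0.96 and the chaperone branch from -0.67 to 0.01.

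Set side by side, the ATF4 branch had 23 of 25 negative log2 fold changes with a median of -0.64, against 14 of 15 with a median of -0.30 in the chaperone branch. The difference between the medians, -0.33, was smaller than its spread between clones (SD 0.53), and it turned to 0.07 without 44a and 0.04 without 44b. Without 44a the ATF4 branch had a median of -0.31 and 18 of 25 negative values, and without 4.72 a median of -1.001. The chaperone median was -0.62 without 44b. The clone 44a had the highest count total of the 6 libraries, 46613068, and the highest mitochondrial share, 6.71% against 5.53% in the other WT/WT clone, 4.72, and 5.12% and 5.5% in 3.11 and 44b. Their part in these values was not tested.

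The branches did not rank the clones of a genotype alike. Within WT/C134W, 19 of 25 ATF4-branch members were higher in 3.11 than in 44b, with a median log2 difference of 0.34, whereas 6 of 15 chaperone members were, with a median of -0.58. Over all genes 48.9% were higher in 3.11, with a median of -0.01. Within WT/WT, 21 of 25 ATF4-branch members were higher in 44a than in 4.72, with a median of 0.70. In the chaperone branch 6 of 15 were, with a median of -0.17. Over all genes 48.45% were higher in 44a, with a median of -0.01. The chaperone share, 40% in each pair, was thus near that of all genes. The 6 genes of amino acid synthesis were higher in 3.11 than in 44b and in 44a than in 4.72 in 6 of 6 cases each. These counts compare single libraries and have no replicate check. With median-ratio factors, library totals or TPM in place of TMM, the ATF4-branch counts were 19 to 20 in the first pair and 21 to 22 in the second. Those of the chaperone branch were 5 to 6 and 6 to 7, and its median in the WT/WT pair was -0.10 with library totals and -0.004 in TPM.

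The single genes behind that pattern, chosen after their values were seen, were ASNS and SLC7A11 in the ATF4 branch and SDF2L1 and HSPA5 among the chaperones. ASNS was 3.53-fold higher in 3.11 than in 44b and 3.05-fold higher in 44a than in 4.72, and SLC7A11 was 4.02-fold and 3.04-fold higher. SDF2L1 and HSPA5 in 3.11 stood at 0.433 and 0.565 times their level in 44b. The typical size of these clone differences, without sign, was 0.66 and 0.70 on the log2 scale in the ATF4 branch (WT/C134W and WT/WT pairs) and 0.58 and 0.18 in the chaperone branch, beside 0.32 and 0.27 over all genes.

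**Figure D4:**
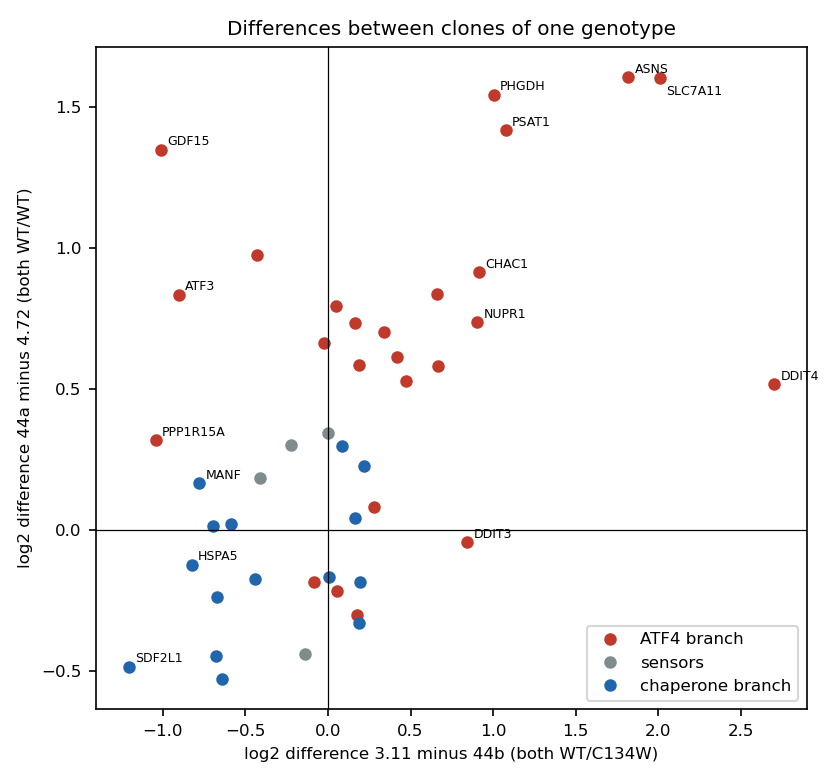
Log2 difference of each member between the 2 clones of a genotype, 3.11 minus 44b (WT/C134W) across and 44a minus 4.72 (WT/WT) up, both from log2(CPM + 0.5). The ATF4 branch lies mostly to the upper right, up to DDIT4 at 2.702 across, and the chaperone branch mostly to the left, down to SDF2L1 at -1.21.

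In the joined libraries 39 of 44 members were lower in WT/C134W, with a median log2 difference of -0.46. The joined level lay between those of the single clones for 30 of 44 members in WT/C134W and 34 of 44 in WT/WT, beside 49.03% and 49.33% of all genes. In the ATF4 branch, the joined WT/C134W and WT/WT libraries held 16.1 and 17.5 CPM of DDIT3, 35.4 and 53.9 CPM of CEBPB, 28.0 and 45.0 CPM of TRIB3, 117 and 210 CPM of MTHFD2, 95.6 and 166 CPM of SLC3A2, 214 and 299 CPM of SLC7A1, 55.4 and 53.8 CPM of DDIT4, and 6.06 and 1.41 CPM of GDF15. All but DDIT4 and GDF15 were lower in the WT/C134W library. Of the sensors they held 5.56 and 7.65 CPM of ERN1, 13.6 and 18.6 CPM of EIF2AK3, and 68.4 and 54.9 CPM of ATF6. Of the chaperones they held 1204 and 1702 CPM of CALR, 74.4 and 120 CPM of HERPUD1, 160 and 227 CPM of HYOU1, 129 and 170 CPM of MANF, 49.2 and 77.9 CPM of CRELD2, 12.6 and 20.1 CPM of DNAJB9, and 70.6 and 73.0 CPM of DNAJC3. All but ATF6 among these were lower in the WT/C134W library. With the joined libraries counted as clones, edgeR called 8 members, all lower (background 2.36%), which were ATF4, CALR, CHAC1, MTHFD2, SLC3A2, SLC7A1, SLC7A5 and XBP1. If these libraries are mixes of the same clones, that fit counts the clones more than once.

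For other genes of the same pathways, from lists of known members, counts at an unadjusted p are given, since edgeR's test called 0 genes in all after adjustment. Of all genes, 4.7% were lower and 2.88% higher with an unadjusted p under 0.05. Further ATF4 targets were lower in 16 of 20 genes (median log2 fold change -0.88), 7 of them with an unadjusted p under 0.05. They were led by GPT2, a transaminase (-1.16 ± 0.23, adjusted p = 0.533), PYCR1, of proline synthesis (-0.995 ± 0.213, adjusted p = 0.563), and JDP2, a bZIP repressor (-1.39 ± 0.34, adjusted p = 0.593). PYCR1 had 89.0 and 87.0 CPM in 3.11 and 44b against 207 and 143 CPM in 44a and 4.72. Cytosolic aminoacyl-tRNA synthetases, which load amino acids onto tRNA, were lower in 14 of 20 genes (median -0.23), 4 of them with an unadjusted p under 0.05. CARS1, MARS1 and GARS1 led them at -0.75, -0.72 and -0.85.

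The upstream machinery was close to level. The list of 13 held genes of eIF2, its exchange factor eIF2B, the other eIF2 kinases, PPP1R15B, and EIF2A, which is not an eIF2 subunit. These genes had a median of -0.004, with 7 lower, 6 higher and 0 with an unadjusted p under 0.05. EIF2S2, an eIF2 subunit, stood at -0.39 ± 0.22, EIF2AK2, the kinase activated by double-stranded RNA, at 0.40 ± 0.28, and PPP1R15B at -0.24 ± 0.21. The kinase of amino acid lack, EIF2AK4, had 90.3 and 93.7 CPM in 3.11 and 44b against 98.2 and 90.8 CPM in 44a and 4.72.

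Further genes of ER folding and ER-associated degradation were lower in 26 of 32 tested (median -0.33). Of these, 6 had an unadjusted p under 0.05, which is 18.8% of the list beside 4.7% of all genes. SYVN1, the ubiquitin ligase of that pathway, had 37.4 and 41.7 CPM in 3.11 and 44b against 54.2 and 65.7 CPM in 44a and 4.72 (-0.60 ± 0.18, adjusted p = 0.619). SERP1, which protects proteins during translocation into the ER, stood at -0.43 ± 0.15, and ERP44, which retains folding enzymes in the ER, at -0.47 ± 0.16.

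Heat shock genes outside the ER did not share that direction. Of 14 genes, 11 were higher in WT/C134W (median 0.14), and 2 higher and 1 lower had an unadjusted p under 0.05. The 2 higher genes of 14 stand beside 2.88% of all genes higher at that p. The 1 lower gene is 7.14% of the list, beside 4.7% of all genes lower. HSPH1, a cytosolic cochaperone, had 185 and 195 CPM in 3.11 and 44b against 136 and 128 CPM in 44a and 4.72 (0.53 ± 0.15, adjusted p = 0.593). HSP90AA1, the cytosolic Hsp90, stood at 0.60 ± 0.21 (adjusted p = 0.647), and HSPB1, a small heat shock protein, at -0.85 ± 0.21 (adjusted p = 0.593).

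The tables also give a length for each gene, which in RSEM output is the mean length of its transcripts weighted by their estimated abundance, and so moves with the mix of isoforms. For 35 of 44 members the genotypes overlapped in this length, while 3 were shorter and 6 longer in both WT/C134W clones. Of these 9, 5 lay on the same side in the joined libraries. The share of all genes without overlap in length was not counted, so these counts are not a result about the members. PSPH had 1516 and 1623 bases in 3.11 and 44b against 1235 and 1330 bases in 44a and 4.72, but 1365 bases against 1568 bases in the joined libraries. ATF4 had between 1436 and 1444 bases in all 6.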

How the data were processed

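Deposited RSEM gene tables of 6 libraries were used. The deposited expected count is, per the file headers, an estimate of reads that can hold decimals, since RSEM divides shared reads. The deposited TPM values, named in the file headers, correct for transcript length. FPKM was deposited too and not used, and the length columns are in bases. The submitters' processing notes name DESeq2 1.26.0, R 3.6.3, STAR 2.7.6a, RSEM 1.3.1 and Picard 2.8.1, with no role, and GRCm38, a mouse build, while the tables hold human gene IDs. For the human build and the strand setting: not given in the sources used here.

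Symbols and coordinates (GRCh38) came from GENCODE 29, which held 58216 of the 58336 gene IDs and all members. Expected counts were rounded. The 4 libraries whose titles name 1 clone entered edgeR 4.0.16 (R 4.3.3) after filterByExpr and TMM scaling, with robust glmQLFit and glmQLFTest, Benjamini-Hochberg adjustment over all genes and a threshold of 0.05. CPM values are TMM-normalised over 6 libraries. The SE is |log2 fold change| over the root of F. Tests were checked on simulated data. Alternatives used DESeq2 1.42.0, limma 3.58.1, other scalings, filters and left-out clones. The title stem pairs 44a with 44b, but the labels do not state a pairing. Members given in every library were ATF4, XBP1, ATF6, ERN1, EIF2AK3, DDIT3, HSPA5, the 8 and 6 members of the ATF4 and chaperone branches with the smallest p, and those whose sign differed from their branch. Values of other members and of EIF2AK4 were added after they were seen. Members and lists were chosen with earlier results of these data known. Pseudogenes named after members held at most 0.319% of a member's counts. Floors of 3 counts cover counting error only, and the SE carries the spread between clones.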

Additional observations from a re-analysis of the deposited data

How the results depend on the processing

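In edgeR's test on the 4 clones 0 genes and 0 members were called, and 0 of either with limma voom, median-ratio factors, library totals alone or a filter of 10 CPM, or without any 1 clone. With all 6 libraries 511 genes and 8 members were called, with DESeq2 283 and 4, and without the low-count filter 664 and 9. In the fit without that filter, however, the prior degrees of freedom, the weight put on a shared estimate of spread, became infinite. A replicate block that pairs 44a with 44b and 4.72 with 3.11 called 5 genes and 0 members, and limma on log2(TPM + 0.1) called 2 genes and 0 members. The deviations of 44a and 44b from their genotype means correlated at 0.27 over all genes and at -0.51 over the 44 members.

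Members with an unadjusted p under 0.05, 15 in the test reported, numbered 25 with all 6 libraries, 24 without the low-count filter, 6 with library totals alone, 8 with limma on log2(TPM + 1), log2(TPM + 0.1) or no TPM filter, and 7 to 14 when each clone was left out. The background of these counts moved too. Of all genes, 1243 of 16416 had such a p in the test reported, but 1943 of 16416 with library totals alone. With all 6 libraries 3028 of 16046 did, without the low-count filter 2098 of 24301, and with limma on log2(TPM + 1) 1251 of 13941. Of the members, 5 were lower and 1 higher with library totals alone, and 23 lower and 2 higher with all 6 libraries. Members lower without overlap, 24 in CPM, numbered 16 with library totals alone and 15 in TPM. The share of all genes without overlap was not counted under those scalings. Leaving out each clone gave ATF4-branch medians of -1.001 to -0.307, chaperone medians of -0.62 to -0.26 and differences of -0.75 to 0.07. Library totals alone moved the median of all genes to 0.23 and the branch medians to -0.43 and -0.08, with 33 of 44 members and 9 of 15 chaperone members below 0. In TPM the median of all genes was 0.15 and the branch medians were -0.39 and -0.20. With 1 clone left out, the lone clone of a genotype is assumed to vary like the others.

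Signs turned for 4 named members. DNAJC3 was at -0.012 with all 6 libraries, -0.005 with limma voom, -0.007 with the block, and -0.243 (without 44b) to 0.215 (without 3.11) when clones were left out, with -0.096 without 44a. DDIT4 was at -0.222 with limma voom, -0.197 with the block, -0.061 with limma on log2(TPM + 0.1), -0.05 on log2(TPM + 1) with or without the filter, and -1.589 (without 3.11) to 1.13 (without 44b). DDIT3 was at 0.145 with library totals alone, 0.015 with limma on log2(TPM + 0.1), 0.016 on log2(TPM + 1) with or without the filter, and -0.575 (without 3.11) to 0.28 (without 44b). HSPA5 ranged from -0.782 (without 44b) to 0.052 (without 3.11). The cause was not tested. Among all values of named members under these alternatives, 308 kept their direction and their side of the threshold, 18 passed it and 17 turned. Most named members were picked for a small p in the test reported, so this tally does not measure the stability of the other members. With library totals alone, members below 0 fell from 40 to 33 of 44, while of the named members DDIT3 alone turned.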
